A study of Mus musculus with 21 samples.

Results

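Ribosomal protein genes encode the proteins that, with ribosomal RNA, build the small and large subunits of the cytosolic ribosome. They were taken here as every gene of the deposited expression tables whose symbol begins with Rpl or Rps and a digit, together with Rplp0, Rplp1, Rplp2, Rpsa and Fau. Symbols marked as pseudogenes (-ps) and the Rps6k kinases were left out. The rule gave 86 of 37310 genes, and it used no measured value. Rps19bp1, which encodes a protein that binds Rps19 and is not itself a ribosomal protein, entered through its name.

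RNA came from intestinal cells of Lgr5EGFPcre-ERT2 mice, in which the Lgr5 gene drives EGFP, and the cells with the brightest EGFP were sorted in bulk for RNA sequencing. Lgr5 is a marker of crypt base stem cells. The study compared 7 groups of 3 libraries, 21 in all, from mice that ate purified diets from weaning until 3 months of age. AIN mice ate the control diet AIN76A. NWD1 and NWD2 mice ate diets of those names, and their makeup is not stated in the labels. NWD1Ca was NWD1 with calcium at 7.0 mg/g and NWD1VitD was NWD1 with vitamin D at 2.3 IU/g, AINlowVitD was AIN with vitamin D at 0.11 IU/g, and the labels word these doses per body weight. The group labelled AIN_VdrKO ate AIN76A and carried a knockout of the vitamin D receptor gene Vdr, without mention of the cells in which it was removed. NWD1Ca held only females, AIN_VdrKO only males, and the other groups both sexes. The labels number the libraries of a group but name no mouse, so the p-values measure the spread between libraries.

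Ribosomal protein mRNAs are among the most abundant of a growing cell and are usually made in balanced amounts, since each ribosome holds its proteins in near-equal numbers. Many begin at a cytosine followed by a run of pyrimidines, the 5′ terminal oligopyrimidine (TOP) motif, through which the kinase complex mTORC1 controls their translation. The crypt epithelium renews itself continually, and its dividing cells make many ribosomes.

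The libraries held 19889795 to 115435120 gene counts each, with 467973 to 3683606 on the 86 genes. The share of mitochondrial ribosomal RNA among gene counts was 0.234% to 0.965% in AIN, NWD1 and NWD2, the first set below, and 2.95% to 5.07% in NWD1Ca, NWD1VitD and AINlowVitD, the second set. AIN_VdrKO lay between, at 1.38% to 2.80%. Of 78 synthetic spike-in RNAs, 0 differed in the 3 comparisons within the first set, but 54 (69.2%) did between NWD1Ca and NWD1, 52 (66.7%) between NWD1VitD and NWD1, and 45 (57.7%) between AINlowVitD and AIN (edgeR). With 12 spike-in counts, AIN 2 did not enter those tests. In comparisons across the sets, set and diet cannot be told apart. Vdr had 7353, 11070 and 34677 counts in the libraries labelled AIN_VdrKO and 16965, 35332 and 34814 in AIN. These counts cover the whole gene, do not show a deleted part, and so do not check that label. Markers of leukocytes, of stroma and vessels, and of red cells summed to at most 47.4, 27.4 and 27.7 TPM (read counts per gene length, scaled to a fixed total) in a library, whereas 8 Paneth cell markers summed to 11453 to 123867 TPM and 10 enterocyte markers to 3579 to 72173 TPM, so the sorted cells also carried RNA of differentiated epithelium. In bulk RNA, fewer cells of a type and less RNA per cell cannot be told apart.

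The start sites of 8 genes are shown because the sizes of the differences described below ran along the coding length of the genes, and these are 4 short genes with large differences (Rps27, Rps21, Rpl39, Rpl35) and 4 longer ones with small ones (Rplp0, Rpl4, Rps6, Rpl7l1), chosen after their values were seen. Each line gives 25 bases before and 15 bases from the annotated start (RefSeq, build GRCm38.p6), 5′ to 3′ on the gene's strand. Capitals mark a run of at least 5 pyrimidines that begins with C within 5 bases of the start, as in a TOP motif. Pyrimidines farther upstream are left in lower case even where the run goes on. The marking depends on the annotated start, and the Rpl4 line holds an unmarked pyrimidine run just upstream of it. A line without capitals thus does not show that the gene lacks a TOP motif.
Rps27: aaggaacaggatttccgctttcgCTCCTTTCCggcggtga
Rps21: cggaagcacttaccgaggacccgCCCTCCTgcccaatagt
Rpl39: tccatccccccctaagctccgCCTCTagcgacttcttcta
Rpl35: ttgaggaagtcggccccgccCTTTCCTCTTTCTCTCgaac
Rplp0: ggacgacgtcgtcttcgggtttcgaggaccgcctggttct
Rpl4: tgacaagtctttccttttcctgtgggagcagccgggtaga
Rps6: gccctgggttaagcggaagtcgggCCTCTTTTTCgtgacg
Rpl7l1: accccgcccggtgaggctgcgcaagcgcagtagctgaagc
They lie at chr3:90213634-90213673 on the minus strand, chr2:180257354-180257393 on the plus strand, chrX:37085208-37085247 on the minus strand, chr2:39005117-39005156 on the minus strand, chr5:115559442-115559481 on the plus strand, chr9:64173362-64173401 on the plus strand, chr4:86857353-86857392 on the minus strand and chr17:46782642-46782681 on the minus strand, in the order of the lines.

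Of the 86 genes, 64 matched a RefSeq promoter window of 250 bases before to 50 after the start. Such a pyrimidine run was found at 30 of these 64 annotated starts (46.9%), against 21.2% of the 27025 genes with a window. It was found in 15 of 24 windows of genes with a coding length under 400 nucleotides (nt). Of those from 400 to under 600 nt 9 of 20 held it, and of those of 600 nt or more 6 of 19. Both long and short genes thus carried it, the short ones more often. Its relation to the differences described below was not tested. The letters CCGGAAG, the core to which ETS factors bind, stood on either strand in 24 windows (37.5%) against 9.93% of all genes. AAGATGGC, a core of the YY1 motif, stood in 7 (10.9%) against 3.19%, and TATAAA, the TATA box, in 7 (10.9%) against 15.7%. Rps6, whose protein is the substrate of S6 kinase, carried such a run of 10 bases, and Rpl35 one of 16 as counted from 5 bases before the start, with further pyrimidines upstream of it.

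Levels per length are given in TPM. All but 3 of the 86 genes had a median of at least 10 TPM over the 21 libraries. Among the highest medians were 2930 TPM for Rps27, 2565 for Rpl32, 2183 for Rplp1 and 2108 for Rps29, which encode proteins of the small subunit except Rpl32, of the large subunit, and Rplp1, of its stalk. There were 12 of the genes among the 100 of highest median TPM in the table. Among the 83 expressed genes the lowest medians were 40.6 TPM for Rpl23a, 60.4 for Rpl24 and 61.3 for Rps4y2. The row named Rpl24 carries an identifier, ENSMUSG00000022601.9, that GENCODE M21 gives to its neighbour Zbtb11, so the gene it counts is uncertain. Rps4y2 is named Rps4l in the same annotation, which lists it as a transcribed pseudogene.

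The 3 genes near 0 are copies with a relative in this family. Rpl3l, the form of Rpl3 known from skeletal muscle and heart, had 43 counts in 12 of the 21 libraries. Rpl10l, known from testis, had 4 counts in all and Rpl39l, also known from testis, 1 count. Their relatives Rpl3, Rpl10 and Rpl39 had medians of 862, 283 and 249 TPM. None of the 3 passed the filter on low counts, so 83 genes were tested. Pseudogene rows (-ps) existed for 53 of the 86 genes and held 0.392% to 0.602% as many counts as the 86 genes together in a library. Reads of near-identical copies may have been lost or split in counting, which makes single members uncertain.

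Together the 86 genes took 2.46% to 9.37% of all TPM in a library. Their share was 4.33%, 4.21% and 2.79% in AIN 1 to 3, 6.75%, 5.28% and 2.99% in NWD1 and 4.79%, 3.09% and 2.46% in NWD2. In the second set it was 6.84%, 8.53% and 8.14% in NWD1Ca, 9.37%, 5.31% and 5.23% in NWD1VitD and 6.67%, 7.81% and 5.60% in AINlowVitD, and in AIN_VdrKO 7.87%, 4.01% and 5.05%. Each NWD1Ca library lay above each NWD1 library, and each AINlowVitD library above each AIN library, while NWD1VitD overlapped NWD1 and AIN_VdrKO overlapped AIN.

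**Figure D1:**
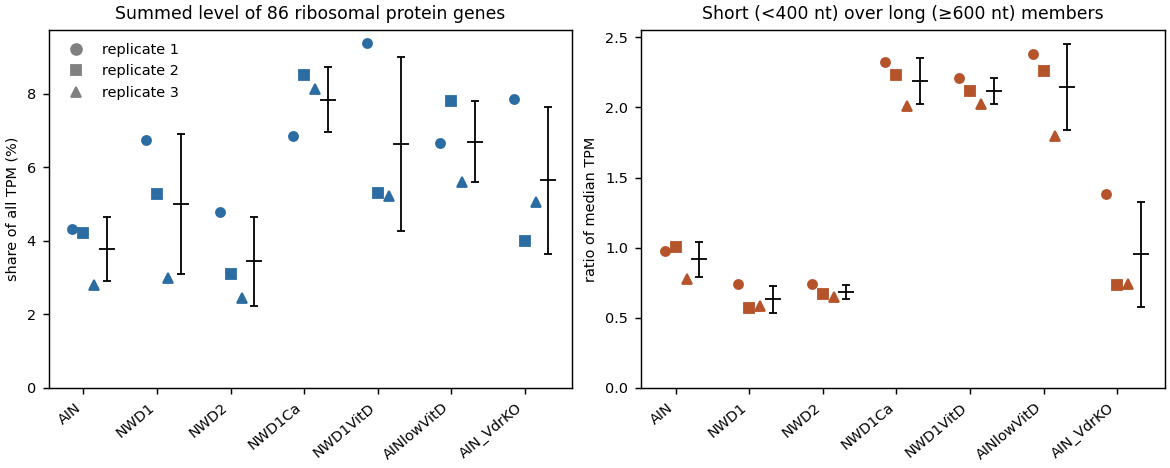
Left, the summed TPM of the 86 genes as a percentage of all TPM in each library, by group. Right, the median TPM of 28 genes with a coding length under 400 nt divided by that of 23 genes of 600 nt or more; points are libraries, and bars give the mean ± SD (n = 3). On the left the groups overlap in part; on the right every library of NWD1Ca, NWD1VitD and AINlowVitD lies at 1.80 or above and every AIN, NWD1 and NWD2 library at 1.01 or below.

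The 83 expressed genes did not vary as a block. Measured as the SD over libraries of a gene's log2 TPM relative to the median ribosomal protein gene of the library, Rps19 (0.131), Rps16 (0.133), Rpl27a (0.136), Rpl24 (0.137) and Rps23 (0.149) followed the family most closely. Rps19 encodes a small subunit protein that is mutated in Diamond-Blackfan anaemia. Rpl7l1 (1.24), a relative of Rpl7, Rpl35 (1.08), whose protein sits near the exit of the large subunit's tunnel, Rps4y2 (1.07), Rpl4 (0.887), whose protein lines that tunnel, and Rps6 (0.832) departed from it most.

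**Figure D2:**
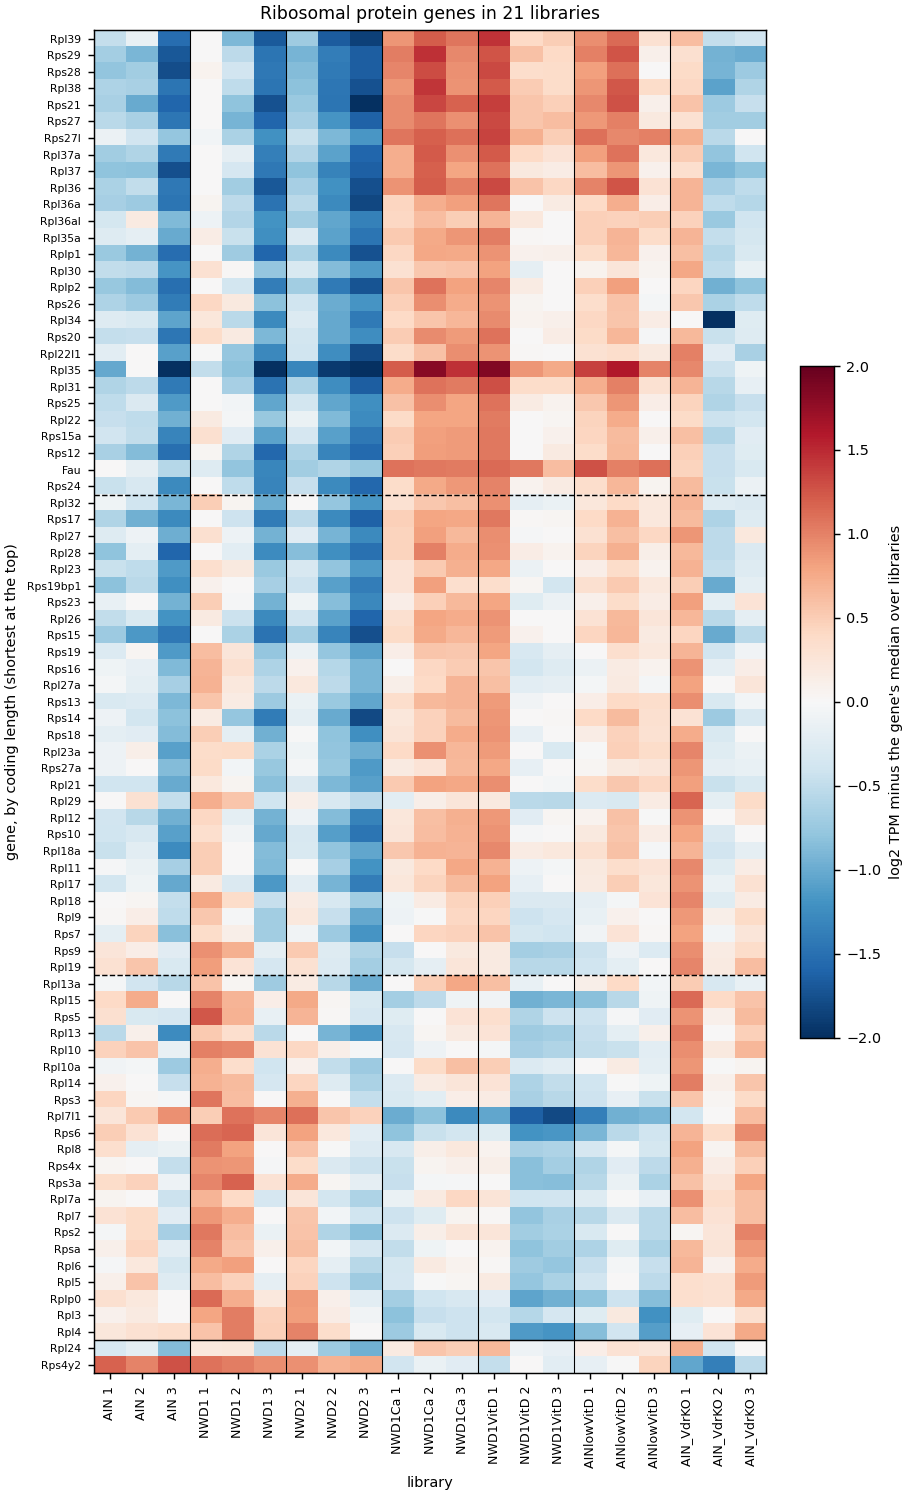
Log2 TPM of 81 of the 83 expressed genes in 21 libraries, minus the gene's median over the libraries, with genes ordered by coding length and dashed lines at 400 and 600 nt; the 2 genes under the solid line have no coding length, and values beyond -2 or 2 take the end colours. Most short genes are red in NWD1Ca, NWD1VitD and AINlowVitD and blue in AIN, NWD1 and NWD2, with NWD1 1 and some others pale, while many genes of 600 nt or more show the opposite colours.

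NWD1 and NWD2 were compared with AIN and with each other to see what these diets do to the sorted cells. No ribosomal protein gene passed the test in NWD1 against AIN (edgeR quasi-likelihood test, Benjamini-Hochberg adjustment over 16050 genes, threshold 0.05), in which 0.766% of all genes did. The median log2 fold change of the 83 genes was -0.14, against -0.04 over all genes. Of the 83, 1 had an unadjusted p under 0.05, against 15.2% of all genes, and calls by DESeq2 numbered 0. In NWD2 against AIN, where 0 genes of the whole table passed (0.0%), the 83 genes all had a fitted log2 fold change below 0, with a median of -0.80 and a range from -1.52 to -0.19. Of these, 18 had an unadjusted p under 0.05, as did 6.85% of all genes; calls by DESeq2 numbered 0. In NWD2 against NWD1, where 0.00623% of all genes passed, all 83 again lay below 0, with a median of -0.63. Of these, 0 had an unadjusted p under 0.05, against 10.7% of all genes, with 0 calls by DESeq2. These 3 comparisons share libraries.

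The low values in NWD2 rested on which AIN and NWD1 libraries they were set against. AIN 3 and NWD1 3 held the lowest shares of their groups. Without AIN 3, 18 genes were called lower in NWD2 than in AIN (3.18% of all genes). Without AIN 1, AIN 2 and NWD1 1, which leaves AIN 3 alone in AIN, the median turned to 0.31. Without NWD1 1 and NWD1 2, the libraries richest in spike-ins, NWD1 3 is alone in NWD1. The median of NWD2 against NWD1 then turned to 0.45. On log2(TPM + 1) (limma) the median of NWD1 against AIN turned to 0.29, close to the 0.25 over all genes. That of NWD2 against AIN was -0.26 (0.24 over all genes), with 1 gene at an unadjusted p under 0.05 (9.26% of all genes). Both had 0 calls. With the trend on coding length removed, as described below, the median of NWD2 against AIN was -0.33.

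NWD1Ca against NWD1 asks what added calcium does on the NWD1 diet. Most ribosomal protein genes rose, with the largest fold changes among genes of small proteins. Of the 83 genes, 61 were higher and 0 lower, against 15.6% of all genes higher and 14.9% lower, and the median log2 fold change was 2.02 against -0.04 over all genes. The libraries of both groups did not overlap for 64 of them (26.1% of all genes did not overlap in this direction). On log2(TPM + 1) (limma), a scaling that shifts the median of all genes to -0.78, 35 were higher and 8 lower (5.15% and 51.5% of all genes), with a median of 0.82, which is 1.60 above that of all genes. Without NWD1 3 the number called higher was 29 (9.28% of all genes).

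Rpl35 had 472, 684 and 530 CPM (counts relative to the TMM-scaled size of the library) in NWD1Ca and 68.6, 42.8 and 14.6 in NWD1. Each NWD1Ca library was far above each NWD1 library, with a log2 fold change of 3.83 ± 0.74 (SE; adjusted p = 0.00121, edgeR). Rps21, a small subunit protein gene, had 665, 825 and 738 CPM in NWD1Ca and 164, 73.7 and 33.0 in NWD1. NWD1 1 was the highest of the control libraries, with a log2 fold change of 3.21 ± 0.67 (adjusted p = 0.00197, edgeR). Rpl39, which encodes one of the smallest proteins of the large subunit, had 620, 741 and 671 CPM against 161, 67.3 and 33.9. Its groups did not overlap either, with a log2 fold change of 3.09 ± 0.66 (adjusted p = 0.00239, edgeR).

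NWD1VitD against NWD1 asks the same of added vitamin D, with the same control libraries. Here 60 of the 83 genes were higher and 1, Rpl7l1, lower, against 19.9% of all genes higher and 20.6% lower. The median log2 fold change was 1.85 against -0.03 over all genes, and 63 genes did not overlap, upward (25.0% of all genes). On log2(TPM + 1), where the median of all genes moved to -0.95, 21 were higher and 17 lower (4.36% and 60.3% of all genes), with a median of 0.35, 1.3 above that of all genes. So under this scaling the family still lay above other genes while many of its long members were lower in TPM.

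Rpl35 again had the largest rise, from the NWD1 values above to 754, 444 and 451 CPM (log2 fold change 3.72 ± 0.64, adjusted p = 0.000247, edgeR). Fau encodes a ribosomal protein made as a fusion with a ubiquitin-like protein, and had 1241, 1348 and 1103 CPM in NWD1VitD against 220, 119 and 71.5 in NWD1. Every NWD1VitD library was above every NWD1 library, with a log2 fold change of 3.17 ± 0.43 (adjusted p = 5.06e-05, edgeR). Rps27, the most abundant of the family in TPM, had 2443, 1656 and 1908 CPM against 456, 186 and 102, a log2 fold change of 3.03 ± 0.53 (adjusted p = 0.000309, edgeR). Rpl7l1 had 96.9, 73.8 and 72.9 CPM against 130, 153 and 123, so all NWD1VitD libraries were lower. It fell by 0.73 ± 0.20 on the log2 scale (adjusted p = 0.00678, edgeR), and the call was lost without a filter on low counts (adjusted p = 0.0543) and without NWD1 1 and NWD1 2 (adjusted p = 0.0588).

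Between NWD1VitD and NWD1Ca, the supplemented diets, 0 of the 83 genes differed, as did 0.0% of all genes. The median log2 fold change was -0.19, the range -0.33 to 0.44, with 0 at an unadjusted p under 0.05 (2.32% of all genes) and 0 calls by DESeq2. This does not show that they acted alike, as the 3 NWD1VitD libraries themselves ranged from 5.23% to 9.37% of TPM.

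The question of AINlowVitD against AIN is that of less vitamin D on the control diet. Its AIN libraries were also the controls for NWD1 and NWD2 above, though not for NWD1Ca and NWD1VitD. All groups shared the same fit. Of the 83 genes, 61 were higher and 0 lower, against 15.1% of all genes higher and 16.3% lower. Their median log2 fold change was 1.80 against -0.10 over all genes, and 75 genes did not overlap between the groups, upward (21.7% of all genes). On log2(TPM + 1), where the median of all genes moved to -0.65, 35 were higher and 7 lower (4.57% and 45.9% of all genes), with a median of 0.78, 1.43 above that of all genes. The number called ranged from 44 (without AIN 3) to 66 when single libraries were left out.

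The largest rise was again that of Rpl35, with 620, 687 and 490 CPM in AINlowVitD and 60.4, 112 and 18.1 in AIN (log2 fold change 3.22 ± 0.62, adjusted p = 0.00114, edgeR). Rps29, a short zinc-binding protein of the small subunit, had 3278, 3681 and 1794 CPM against 520, 406 and 181. AINlowVitD 3 was the lowest of its group and still above all AIN libraries, with a log2 fold change of 2.98 ± 0.56 (adjusted p = 0.00097, edgeR). Rps21 had 793, 924 and 448 CPM against 132, 94.7 and 48.6, a log2 fold change of 2.97 ± 0.56 (adjusted p = 0.00103, edgeR). In each of these 3 comparisons across the sets, both subunits took part: in AINlowVitD against AIN 35 of 48 large subunit genes and 25 of 34 small subunit genes were higher, with medians of 1.75 and 1.87.

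**Figure D3:**
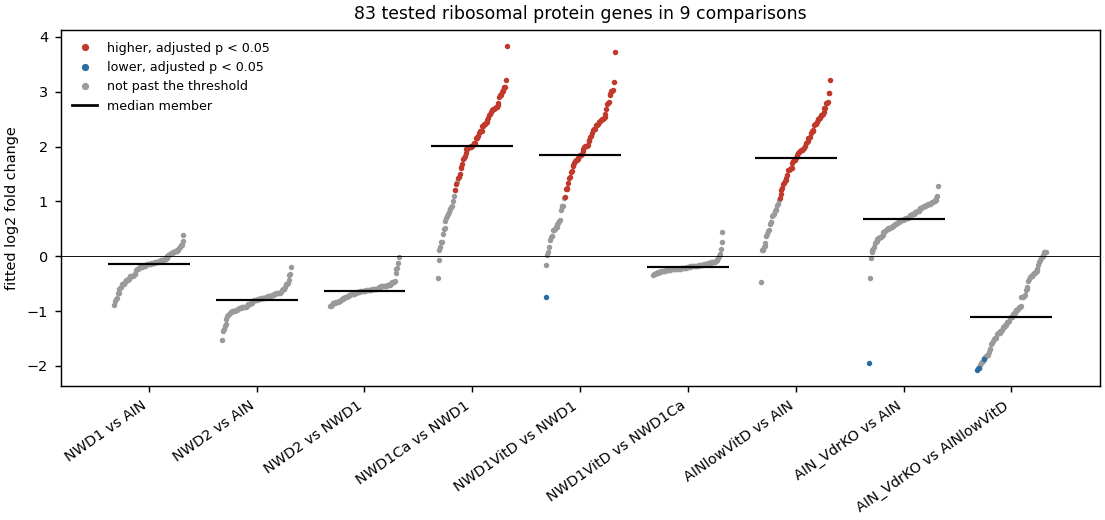
Fitted log2 fold changes (edgeR) of the 83 tested genes in 9 comparisons, each sorted by size, with red for called higher, blue for called lower and a black line at the median. NWD1Ca and NWD1VitD against NWD1 and AINlowVitD against AIN have medians of 2.02, 1.85 and 1.80; the comparisons within a set have medians from -0.80 to -0.14.

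Markers of epithelial cell types are given for the same comparisons, to be read beside the shares of all genes. Of all genes, 15.6% were higher and 14.9% lower in NWD1Ca against NWD1. In NWD1VitD against NWD1 these shares were 19.9% and 20.6%, and in AINlowVitD against AIN 15.1% and 16.3%. A single call in a list of 8 or 10 markers does not exceed them. The summed level of 10 enterocyte markers was 3579 to 7879 TPM in NWD1, 30456 to 52690 in NWD1Ca and 35474 to 62961 in NWD1VitD, and 4 and 6 of the 10 were higher than in NWD1, with 0 lower. In AINlowVitD (22686 to 72173 TPM) and AIN (20621 to 28937 TPM) the sums overlapped, and 1 of 10 was higher. The 10 Lgr5 stem cell markers summed to 6052 to 10166 TPM in NWD1 and 342 to 1175 TPM in NWD1Ca and NWD1VitD, where 5 and 7 of 10 were lower, and to 1460 to 3923 TPM in AIN and 304 to 928 TPM in AINlowVitD, where 1 was lower. Of 8 goblet cell markers, 2, 3 and 2 were higher in NWD1Ca, NWD1VitD and AINlowVitD and 0 lower. Their sum was 97538 to 104951 TPM in NWD1Ca against 33819 to 79891 in NWD1. The sums in NWD1VitD overlapped those in NWD1, and the sums in AINlowVitD those in AIN. Of 8 enteroendocrine markers, 3, 4 and 3 were higher and 0 lower. Their sums were 3837 to 5292 TPM in AINlowVitD against 1825 to 3024 in AIN, while NWD1Ca and NWD1VitD overlapped NWD1. Of 8 Paneth cell markers, 1, 3 and 2 were higher and 0 lower. Their sums in NWD1Ca and NWD1VitD overlapped those in NWD1, while each AINlowVitD library lay above each AIN library. Of 8 tuft cell markers, 4 were lower in NWD1Ca, where they summed to 155 to 280 TPM against 622 to 1738 in NWD1. In the other 2 comparisons 0 were called, though each sum there also lay below each sum of the controls. The sum of 5 general epithelial markers was 2898 to 3589 TPM in AINlowVitD against 6639 to 9398 in AIN. That of 9 leukocyte markers was 2.75 to 3.19 against 10.4 to 16.6. In this comparison 1 of the 5 was higher and 1 lower, and 0 of the 9 passed. Both sums were also lower in every NWD1Ca and NWD1VitD library than in every NWD1 library. None of these markers was at 0 in all libraries. Their part in the difference of the ribosomal protein genes was not tested.

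The size of the rise followed the coding length of the gene, a pattern examined after the values were seen, with bounds of 400 and 600 nt set then too. Of the 83 genes 81 have a coding length, from 153 nt (Rpl39) to 1257 nt (Rpl4). Across these genes, which share libraries and are not replicates, Spearman's rho between log2 fold change and coding length was -0.89 in NWD1Ca against NWD1, -0.88 in NWD1VitD against NWD1 and -0.87 in AINlowVitD against AIN. Over 13473 genes of any kind with a coding length, it was -0.19, -0.18 and -0.17. All 28 genes under 400 nt were called higher in each of the 3 comparisons, with medians of 2.71, 2.52 and 2.49, as were 27 of the 30 from 400 to under 600 nt. Of the 23 genes of 600 nt or more, 5, 4 and 5 were called higher, with medians of 0.76, 0.53 and 0.73.

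Other genes leaned the same way with length, and by less. In AINlowVitD against AIN, 348 of 759 other genes under 400 nt were higher with a median of 1.29, and 1265 of 11597 of 600 nt or more with a median of -0.28. In NWD1Ca against NWD1 the other short genes had a median of 1.37 and the long ones -0.24, and in NWD1VitD against NWD1 1.45 and -0.23. At each of the 3 lengths and in each of the 3 comparisons the median ribosomal protein gene thus lay above that of other genes. With a trend on coding length fitted in each library and removed, an alternative added after the data were seen, 63, 60 and 67 of the 83 genes were higher in NWD1Ca, NWD1VitD and AINlowVitD (16.8%, 22.4% and 17.1% of all genes). The medians, at 1.31, 1.15 and 1.3 against 0.05, 0.07 and 0.02 over all genes, were smaller than without it.

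**Figure D4:**
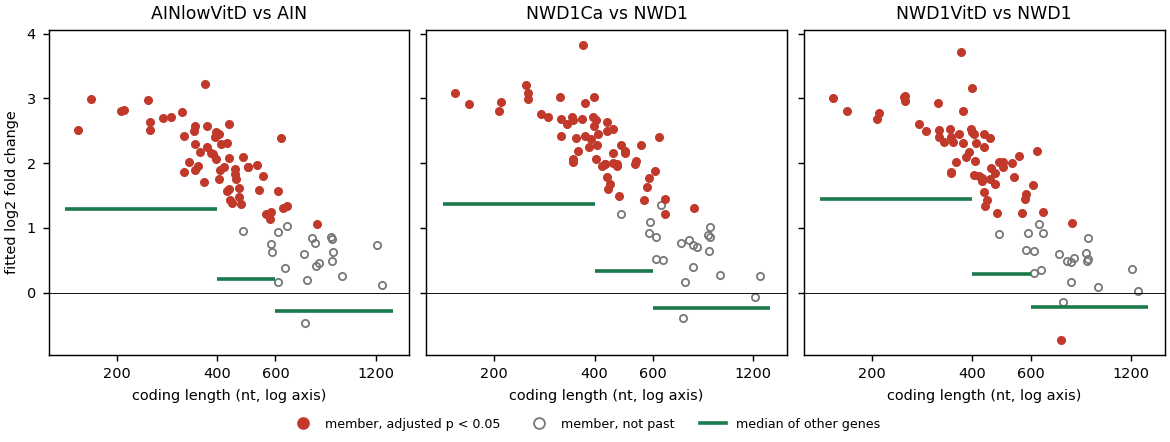
Fitted log2 fold change against coding length (log axis) for 81 ribosomal protein genes in the 3 comparisons across the sets; filled points passed the test, and green lines give the median of all other genes under 400 nt, from 400 to under 600 nt and of 600 nt or more. Under 400 nt every point is filled and lies between 1.70 and 3.83, while most points of 600 nt or more are open.

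The same split was visible inside each library, where no scaling between libraries enters. The median TPM of the 28 short genes divided by that of the 23 long genes was 0.973, 1.01 and 0.775 in AIN, 0.744, 0.567 and 0.586 in NWD1 and 0.742, 0.669 and 0.647 in NWD2. It was 2.32, 2.23 and 2.01 in NWD1Ca, 2.21, 2.11 and 2.03 in NWD1VitD and 2.38, 2.26 and 1.80 in AINlowVitD. The lowest library of the second set lay above the highest of the first. AIN_VdrKO was divided, at 1.38 in AIN_VdrKO 1 and 0.734 and 0.738 in AIN_VdrKO 2 and 3.

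The stalk of the large subunit, which recruits the factors that drive translation, shows this within 1 complex. Rplp0, the long scaffold of the stalk (951 nt), had 918, 1059 and 1116 CPM in NWD1Ca, 1286, 841 and 985 in NWD1VitD and 1536, 906 and 546 in NWD1. These groups overlapped, and the log2 fold changes were 0.26 ± 0.38 and 0.08 ± 0.33 (adjusted p = 0.628 and 0.860, edgeR). Rplp1, one of the short proteins that sit on it, had 1367, 1648 and 1637 CPM in NWD1Ca, 1938, 1283 and 1435 in NWD1VitD and 487, 234 and 109 in NWD1. It rose by 2.71 ± 0.59 and 2.53 ± 0.50 on the log2 scale (adjusted p = 0.00251 and 0.000827, edgeR). Its partner Rplp2 rose too, by 2.67 ± 0.61 and 2.41 ± 0.52 (adjusted p = 0.00361 and 0.00151, edgeR). In AINlowVitD against AIN, Rplp1 rose by 2.50 ± 0.50 (adjusted p = 0.00146, edgeR) and Rplp0 had 0.25 ± 0.33 (adjusted p = 0.604, edgeR). The ratio of Rplp1 to Rplp0 in TPM was 0.670 to 1.11 in the 9 libraries of the first set, 4.47 to 5.25 in the 9 of the second and 2.78, 1.26 and 1.12 in AIN_VdrKO. The ratio of Rplp2 to Rplp1 stayed between 0.131 and 0.234 in all 21 libraries.

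Rpl5 and Rpl11 bind together to a small ribosomal RNA and, outside the ribosome, to the p53 regulator Mdm2. Rpl11 had 511, 534 and 551 CPM in AINlowVitD against 224, 190 and 101 in AIN, with no overlap, and rose by 1.58 ± 0.45 on the log2 scale (adjusted p = 0.0122, edgeR). Rpl5, the longer of them, had 327, 404 and 307 CPM against 234, 298 and 129, also with no overlap, and 0.63 ± 0.34 (adjusted p = 0.165, edgeR). Against NWD1, Rpl11 rose by 2.03 ± 0.52 in NWD1Ca and 1.78 ± 0.45 in NWD1VitD (adjusted p = 0.00756 and 0.00451, edgeR), and Rpl5 had 1.01 ± 0.40 and 0.84 ± 0.34 (adjusted p = 0.0600 and 0.0568, edgeR).

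Rps27a, which encodes a ribosomal protein fused to ubiquitin, rose by 1.48 ± 0.45 in AINlowVitD (adjusted p = 0.0191, edgeR) and by 1.96 ± 0.53 and 1.85 ± 0.46 in NWD1Ca and NWD1VitD (adjusted p = 0.00988 and 0.00385, edgeR). Fau, with a ubiquitin-like partner, rose by 2.49 ± 0.42, 3.03 ± 0.48 and 3.17 ± 0.43 in the same order, and its smallest adjusted p was 5.06e-05. Rps19 rose by 1.60 ± 0.48, 1.79 ± 0.56 and 1.55 ± 0.47 (largest adjusted p = 0.0209, edgeR). Rps6 and Rpsa, the latter also known as a laminin receptor, passed in none of the 3. Rps6 had 264, 322 and 386 CPM in AINlowVitD against 354, 283 and 177 in AIN, which overlapped, with 0.19 ± 0.32 (adjusted p = 0.700, edgeR). Rpsa had 622, 759 and 633 CPM against 523, 599 and 296, without overlap, and 0.48 ± 0.34 (adjusted p = 0.300, edgeR). The longest genes, Rpl3 and Rpl4, whose proteins lie at the catalytic centre and in the tunnel of the large subunit, had 0.73 ± 0.33 and 0.11 ± 0.28 (adjusted p = 0.0954 and 0.792, edgeR).

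Several genes of the family have a copy, and 5 such pairs were expressed. Rpl22l1 was higher than Rpl22 in TPM in every library, by 2.61-fold (NWD1 2) to 6.67-fold (AIN_VdrKO 1). The ratio was 3.94 to 6.15 in AIN, above all libraries of NWD1 (2.61 to 3.80) and NWD2 (2.98 to 3.58), and these differences were not tested. Rps27l, which p53 is known to induce, had 0.424 to 0.808 times the TPM of Rps27. The ratio of Rpl36al to Rpl36a was 0.793 to 1.97, with AIN (1.29 to 1.97) above all libraries of NWD1, NWD1Ca, NWD1VitD and AIN_VdrKO, also not tested. Each of these 6 genes rose in the 3 comparisons across the sets, for instance Rpl22l1 by 1.70 ± 0.53 and Rpl22 by 2.15 ± 0.42 in AINlowVitD (adjusted p = 0.0202 and 0.00121, edgeR).

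Of the other 2 pairs, Rpl7l1 had 0.222 to 0.633 times the TPM of Rpl7 in the first set and 0.114 to 0.223 times in the second, and NWD1 1, at 0.222, overlapped AINlowVitD 3, at 0.223. Rpl7, which did not pass the test in any comparison, had 560, 634 and 577 CPM in AINlowVitD against 513, 501 and 252 in AIN (log2 fold change 0.45 ± 0.34, adjusted p = 0.333, edgeR). Rps4y2 had 0.0387, 0.0459 and 0.0652 times the TPM of Rps4x in AIN_VdrKO and 0.0871 to 0.437 times in the 18 other libraries, so it was lowest in all 3 AIN_VdrKO libraries.

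**Figure D5:**
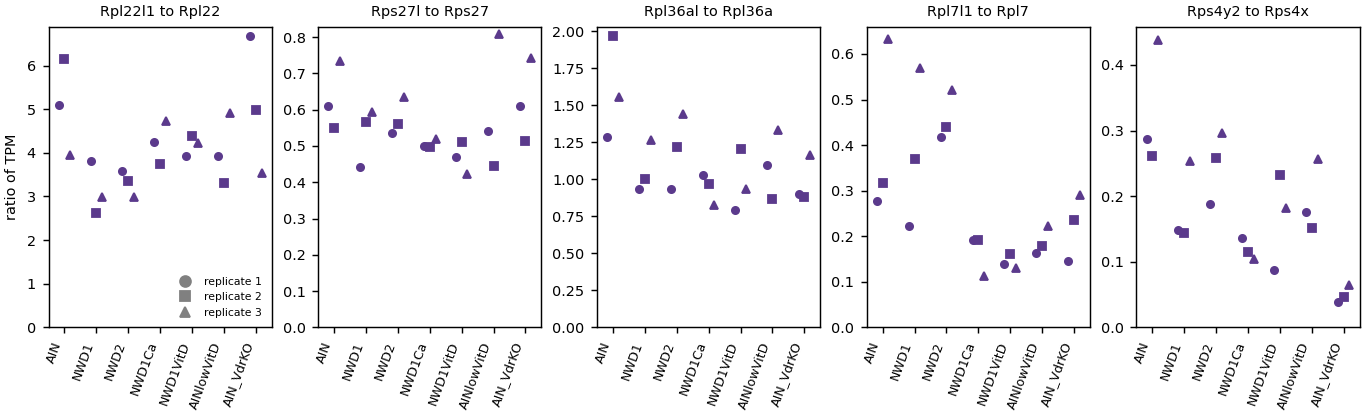
Ratio of TPM of a copy to its relative in each library, by group, for 5 pairs; circles, squares and triangles are replicates 1, 2 and 3, and each axis starts at 0. Rpl7l1 to Rpl7 is lower in NWD1Ca, NWD1VitD and AINlowVitD than in most libraries of AIN, NWD1 and NWD2, and Rps4y2 to Rps4x is lowest in AIN_VdrKO, at 0.0387 to 0.0652.

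The libraries labelled AIN_VdrKO were compared with AIN and with AINlowVitD, to set loss of the receptor beside the same diet and beside less vitamin D. Against AIN, 0 of the 83 genes were higher (7.44% of all genes were) and 1, Rps4y2, was lower (5.09% of all genes). The median log2 fold change was 0.67 against -0.01 over all genes, and 12 genes did not overlap, upward (14.0% of all genes). Of the 78 spike-ins, 10 (12.8%) differed, and mitochondrial ribosomal RNA was higher in every AIN_VdrKO library than in every AIN library; the part of either in the result was not tested. Single libraries moved the median, to 0.02 without AIN 3 and to 0.08 without AIN_VdrKO 1. Without AIN 1, AIN 2 and NWD1 1, which leaves AIN 3 alone in AIN, the median was 1.75. With only the libraries of AIN_VdrKO and AIN the median was 1.86 with 0 calls.

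Rps4y2 had 20.6, 13.7 and 17.3 CPM in AIN_VdrKO, 74.9, 60.2 and 55.8 in AIN and 57.5, 60.6 and 90.6 in AINlowVitD. Every AIN_VdrKO library was lower than every library of the other groups as well, whose lowest was NWD1 3 with 33.4. It fell by 1.95 ± 0.28 on the log2 scale against AIN (adjusted p = 0.00023, edgeR) and by 2.07 ± 0.27 against AINlowVitD (adjusted p = 0.000687, edgeR). Both calls were lost when only the libraries of the groups compared were fitted (adjusted p = 0.0704 and 0.0895, edgeR). Rps4x, its relative on the X chromosome, had 920, 517 and 459 CPM in AIN_VdrKO against 450, 400 and 221 in AIN and 0.62 ± 0.42 (adjusted p = 0.367, edgeR).

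Against AINlowVitD, 0 of the 83 genes were higher and 3 were lower (0.685% and 2.38% of all genes), Rps4y2, Fau and Rps27l. The median log2 fold change was -1.11 against 0.13 over all genes. An unadjusted p under 0.05 was held by 45 genes (20.2% of all genes), and 41 did not overlap, downward (12.8% of all genes). Of the spike-ins, 38 (48.7%) differed, and mitochondrial ribosomal RNA was lower in every AIN_VdrKO library than in every AINlowVitD library; the part of either was not tested. On log2(TPM + 1), where the median of all genes moved to 0.63, 7 were higher and 5 lower (30.1% and 2.02% of all genes), with a median of -0.34. AIN_VdrKO 1 had a larger share of ribosomal protein TPM than the other libraries of its group, and without it 53 genes were lower (7.14% of all genes). Without AIN_VdrKO 2, AIN_VdrKO 3 or AINlowVitD 3, 1 was lower (0.561%, 0.492% and 0.741% of all genes). DESeq2 called 22 lower (5.35% of all genes).

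Fau had 579, 259 and 203 CPM in AIN_VdrKO against 1579, 1231 and 1428 in AINlowVitD, with no overlap, and fell by 2.03 ± 0.45 on the log2 scale (adjusted p = 0.017, edgeR). Rps27l had 1308, 461 and 472 CPM against 2640, 2241 and 2546 and fell by 1.87 ± 0.48 (adjusted p = 0.0376, edgeR). The call for Fau was lost without AIN_VdrKO 2, AIN_VdrKO 3 or AINlowVitD 3, and that for Rps27l without any single library other than AIN_VdrKO 1. The differences followed coding length here too, in the opposite sense: Spearman's rho was 0.88 over the 81 genes and 0.25 over 13473 genes, and the medians were -1.64 for 28 genes under 400 nt and -0.27 for 23 genes of 600 nt or more.

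Other genes of translation and ribosome assembly are given beside the shares of all genes, which were 15.1% higher and 16.3% lower in AINlowVitD against AIN, 19.9% and 20.6% in NWD1VitD against NWD1 and 15.6% and 14.9% in NWD1Ca against NWD1. Of 6 elongation factor genes, Eef1b2, an exchange factor, was higher in AINlowVitD than in AIN (log2 fold change 1.33, adjusted p = 0.0129, edgeR) and Eef2, the translocase, lower (-0.83, adjusted p = 0.0205, edgeR), and the median was -0.17. Of 35 initiation factor genes, 6 were higher and 12 lower, with a median of -0.14. Of 52 genes of ribosome biogenesis, which process ribosomal RNA and assemble subunits, 4 were higher and 13 lower, with a median of -0.35. Examples are Bop1 at -1.73 (adjusted p = 0.000543, edgeR), which matures the large subunit RNA, and the short gene Nop10 at 2.08 (adjusted p = 0.00323, edgeR), of the particle that makes pseudouridine. In NWD1VitD against NWD1, 1 of the 52 was higher and 32 lower, with a median of -0.88, and in NWD1Ca against NWD1 2 and 15, with -0.41. Of 13 genes of RNA polymerase I, which transcribes ribosomal RNA, 2 were higher and 3 lower in AINlowVitD, and of 19 genes of mTORC1 and of regulators of TOP mRNAs 1 and 5.

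Of 8 other mRNAs with a TOP motif, 2 were higher in AINlowVitD than in AIN, among them Tpt1, the translationally controlled tumour protein (1.31, adjusted p = 0.0135, edgeR), and 1 was lower, Hnrnpa1, a splicing factor (-1.72, adjusted p = 0.000599, edgeR). The proteins of the mitochondrial ribosome, a separate family encoded in the nucleus, had 22 of 75 genes higher and 4 lower in AINlowVitD against AIN, with a median of 0.43. In NWD1Ca against NWD1 these numbers were 29 and 4 with a median of 0.81, and in NWD1VitD against NWD1 24 and 8 with 0.45. All lists were chosen with results of these data known, and the counts are descriptions, to be read against the shares of all genes given above.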

How the data were processed

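RNA was measured in 21 libraries of sorted cells (total RNA, SMART-Seq v4, Nextera XT; strand is not marked). The authors deposited whole-number read counts per gene, not normalised, and TPM values for the same 37310 genes. The submitters' processing notes name STAR 2.4.2a, HTSeq 0.6.1, edgeR and build mm9, without their roles. The deposited TPM followed from the counts with a fixed length for each gene, to within an SD of 6.44e-10 on the log2 scale over 6979 genes.

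The main test was the quasi-likelihood test of edgeR 4.0.16 (R 4.3.3), two-sided, with TMM scaling and filterByExpr (16050 genes), on all 21 libraries with group means and sex. Adjusted p-values are Benjamini-Hochberg over the 16050 genes, with 0.05 as the threshold. It was tested on simulated data first. Alternatives used DESeq2 1.42.0, limma 3.58.1 on log2(TPM + 1) or log2(TPM + 0.1), other scalings, filters, covariates and libraries. Coding lengths came from GENCODE M21 for 84 of the 86 genes, and promoter windows from RefSeq (GRCm38.p6). Libraries do not overlap where every CPM of a group lies beyond every CPM of the other. No libraries were merged as duplicates, since no pair of replicates agreed within sampling noise (chi-square per degree of freedom of at least 51.7).

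Genes named were the copies and their relatives, stalk genes and a fixed set of members with known roles. Added were the 3 largest rises and falls past the threshold without overlap in each comparison, the 5 highest and 5 lowest levels and the 5 most and 5 least varying genes. Some genes that this rule names are not reported here. Where another gene is named, the text says so. The genes, lists and tests were chosen with earlier results of these data known. Depth was 19889795 to 115435120 counts per library. Replicate numbers were checked for pairing, as given in the closing section. No column of values was left unmapped.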

Additional observations from a re-analysis of the deposited data

How the results depend on the processing

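Set and diet cannot be told apart in the comparisons across the sets, and 3 libraries per group limit what could be detected. Counts below are of the 83 genes called, or of 86 where no filter on low counts was used. Shares of all genes called also changed between fits. The counts therefore show only how far the calls depended on the fit. With each library of the compared groups left out in turn, the counts ran from 0 to 0 in NWD1 against AIN, NWD2 against NWD1 and NWD1VitD against NWD1Ca, from 0 to 18 in NWD2 against AIN, from 29 to 72 in NWD1Ca against NWD1, from 51 to 70 in NWD1VitD against NWD1 and from 44 to 66 in AINlowVitD against AIN. They ran from 1 to 1 in AIN_VdrKO against AIN and from 1 to 53 in AIN_VdrKO against AINlowVitD.

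Without a filter on low counts, 2 genes were called lower in NWD2 against AIN (0.469% of all genes). In AIN_VdrKO against AIN 1 was higher and 1 lower (4.99% and 3.56% of all genes). In AIN_VdrKO against AINlowVitD 36 were lower (3.37% of all genes). In NWD1VitD against NWD1 the count was 38 on log2(TPM + 1) and 40 on log2(TPM + 0.1). In these fits 4.36% and 4.72% of all genes were higher, and 60.3% and 60.7% lower. In AIN_VdrKO against AIN the count was 2 without a sex term (9.85% of all genes higher and 7.66% lower) and 0 with only the libraries of those groups. Leaving out AIN 1, AIN 2 and NWD1 1 keeps 1 library in AIN. The median log2 fold change was then 1.75, against 0.67 in the main fit. In AIN_VdrKO against AINlowVitD the count was 22 with DESeq2 (5.35% of all genes lower) and 17 without a sex term (4.68% lower). It was 12 on log2(TPM + 1), where most turned to higher (30.1% of all genes higher), and 14 on log2(TPM + 0.1) (36.9% higher). It was 0 with only the libraries of those groups and 6 with a gene length offset.

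Replicate numbers showed no strong pairing of the libraries. Over 63 pairs of the same number the deviations from the group means had a mean correlation of 0.0195, and 18 pairs exceeded 0.1. Over 126 pairs of other numbers the mean was -0.00942, and 27 exceeded 0.1. The highest correlations were 0.459 and 0.375, so some pairing is not excluded. With the replicate block the counts were 67 in NWD1Ca against NWD1, 65 in NWD1VitD against NWD1, 65 in AINlowVitD against AIN and 33 in AIN_VdrKO against AINlowVitD. The median log2 fold changes were 2.15, 1.93, 1.89 and -1.23, against 0.006, -0.002, -0.08 and 0.12 over all genes. Shares of all genes called are not given for this fit, so the counts say nothing about the family alone.

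On the TPM scale several genes, Rps4y2 among them, were called in the opposite direction to their sign in counts. On log2(TPM + 1) and log2(TPM + 0.1), NWD1Ca against NWD1 gave -0.77 and -0.77 for Rpl10, -0.98 and -0.98 for Rplp0, -1.17 and -1.19 for Rps4y2 and -1.11 and -1.11 for Rps6. NWD1VitD against NWD1 gave -1.19 and -1.19 for Rpl10, -1.19 and -1.19 for Rpl3, -0.997 and -1.0 for Rpl7, -1.43 and -1.44 for Rplp0, -1.05 and -1.05 for Rps4x, -1.22 and -1.24 for Rps4y2 and -1.04 and -1.04 for Rpsa. AINlowVitD against AIN gave -0.68 and -0.68 for Rpl10, -0.87 and -0.87 for Rplp0, -1.05 and -1.06 for Rps4y2 and -0.87 and -0.87 for Rps6. AIN_VdrKO against AINlowVitD gave 0.85 and 0.85 for Rpl10. With a gene length offset Rps4y2 had -0.91 in NWD1Ca against NWD1 and -0.74 in AINlowVitD against AIN. Of 3825 recomputed values of named genes, 3611 kept their direction or stayed without a call, 120 gained a call, 60 lost it and these 34 turned; among values without a call on either side, 320 changed sign. The causes were not tested.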

Other observations

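Rpl34, which encodes a protein of the large subunit, was low in a single library relative to the median ribosomal protein gene. Its log2 TPM relative to that gene was -1.56 in AIN_VdrKO 2. In the other libraries it ran from -0.38 (NWD1 2) to 0.68 (NWD1VitD 2). Rpl34 had 84.3 CPM in AIN_VdrKO 2, against 430 and 214 CPM in AIN_VdrKO 1 and 3. In CPM this was not the lowest library, as NWD1 3 lay lower still.

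Targets of p53 were measured beside the ribosomal protein genes. Of 12 such genes, 1 was higher and 3 lower in AINlowVitD against AIN (edgeR), with a median log2 fold change of -0.81. Of all genes, 15.1% were higher and 16.3% lower there. In NWD1VitD against NWD1, 1 was higher and 5 lower, with a median of -0.87, against 19.9% and 20.6% of all genes. NWD1Ca against NWD1 is not reported here, and set and diet cannot be told apart in these comparisons.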
